A study of Mus musculus with 8 samples.

Results

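The regions described here are the differential m6A peaks of TM3 cells that had enough reads in every column for a ratio of ratios to be read. TM3 is an established mouse line that the labels describe as Leydig cells, which make testosterone in the testis. Of 3331 peaks in the deposited table, 1016 had at least 100 reads in each of its 4 columns: the m6A immunoprecipitate (IP) and the input, from normal cells and from cells exposed to bisphenol A (BPA, an oestrogen-like plasticiser component). The same 4 columns gave the selection and the values, so the peak values below are a description without a test.

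The series holds 8 libraries in 4 groups of 2: MeRIP and RNA-seq of BPA-exposed TM3 cells, and MeRIP and RNA-seq of normal TM3 cells. In MeRIP, fragmented mRNA is pulled down with an antibody to N6-methyladenosine (m6A), and RNA-seq of the same RNA gave the input. The labels give no dose, exposure time or vehicle, and do not say whether replicates were separate cultures. The peak table has 1 pooled value per condition, so the columns carry no replicate spread. All 3331 peaks had been selected by the authors as differential, with a p-value of at most 0.00984 in the authors' deposited table, so peaks without a difference are not part of the comparison.

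m6A is the most abundant internal modification of mRNA. It is placed by a writer complex around METTL3 and METTL14, removed by the demethylases FTO and ALKBH5, and bound by readers such as the YTH proteins, which influence splicing, export, translation and decay. Because an IP recovers more fragments from an abundant RNA, the IP level of a region is read against its input, and a difference in methylation between conditions is read from the change of that ratio.

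The deposited values are RPM, reads scaled to a total for each column that the sources do not state. In each column they were whole multiples of a fixed step, so read numbers could be recovered (100% of values within 0.1 read of a whole number). The steps correspond to totals of 5402180 reads for the normal IP, 1703690 for the normal input, 3908370 for the BPA IP and 818210 for the BPA input, far below the RNA-seq library totals, and the listed peaks alone hold 82.61 to 89.42% of each scale. The scaling is therefore not to the whole library. Read numbers below therefore show depth and cannot be compared between columns, and every ratio and change was taken from RPM. The 1016 peaks had a median of 1755 reads in the normal IP, 606.5 in the normal input, 1172.5 in the BPA IP and 411.5 in the BPA input. The other 2315 peaks had medians of 720, 199, 651 and 4 reads in the same order. The BPA input set the selection: 1996 of the other peaks had under 100 reads there, 1222 of them in no other column. The selected peaks held 80.1% of the BPA input RPM of all listed peaks, against 50.3% in the normal IP, 54.6% in the normal input and 47.4% in the BPA IP.

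At the edge of the selection lay 2 neighbouring peaks of Serpinh1, a collagen chaperone of the endoplasmic reticulum, with 100 BPA input reads each, and a peak of Col3a1, a fibrillar collagen, with 101 normal input reads. Just outside were peaks of Uba2, a subunit of the SUMO-activating enzyme, and of ENSMUSG00000118667 with 99 BPA input reads each, and a peak of Cnppd1 with 99 BPA IP reads. The log2 ratio changes inside were 0.38 and 0.21 for Serpinh1 and −2.03 for Col3a1. Those outside were 0.50 for Uba2, 0.41 for ENSMUSG00000118667 and −4.76 for Cnppd1. The peak of Map1lc3b, the autophagy gene in the title of the series, was not among the selected peaks. It had 1329 reads in the normal IP, 335 in the normal input, 784 in the BPA IP and 4 in the BPA input.

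The 1016 peaks carried 804 gene entries. They were short, with a median of 75 nt (25 to 325 nt), as were the other peaks (75 nt). Of the selected peaks, 205 (20.2%) were split into 2 or more blocks, and 19.4% of the other peaks were. A RefSeq gene class was found for 969 peaks. Of these, 874 (90.2%) lay in protein-coding genes and 75 (7.74%) in pseudogenes, against 93.7% and 4.71% of the other peaks. Pseudogene peaks had a median log2 ratio change of 0.08 and protein-coding peaks one of −0.49.

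The ratio change of a peak is the log2 of IP over input in BPA divided by IP over input in normal cells. Over the 1016 peaks it had a median of −0.40, 90% of values between −3.59 and 2.60 and a range from −6.17 to 5.35. Counted from that median, 272 peaks (26.8%) were 2-fold or more higher in BPA, 399 (39.3%) were 2-fold or more lower and 345 lay between. Over all 2580 listed peaks with reads in every column, 60.9% passed the same upper limit and 24.4% the lower one. The selection used the same columns, and nothing is read from the difference in shares. Counting error was small beside these changes: its standard error per peak had a median of 0.12 on the log2 scale and a maximum of 0.21.

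The balance of directions depended on where zero was set. The log2 fold change in the authors' deposited table was larger than the ratio change by 0.78 at every selected peak. On the authors' scale 532 of the 1016 peaks were above 0 and 484 below, whereas from the RPM values alone 415 were above 0 and 601 below. For 117 peaks the authors' table gave an increase and the RPM ratio a decrease. Of calls past 2-fold, 53.3% were higher on the authors' scale, 40.5% relative to the median and 30.2% without centring. At a minimum of 200 reads, with 743 peaks centred on their own median, 60.4% of calls were higher (278 against 182). The values avoided the authors' zero, with 8 peaks within 0.25 of it and 123 peaks within 0.25 of the RPM zero.

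**Figure D1:**
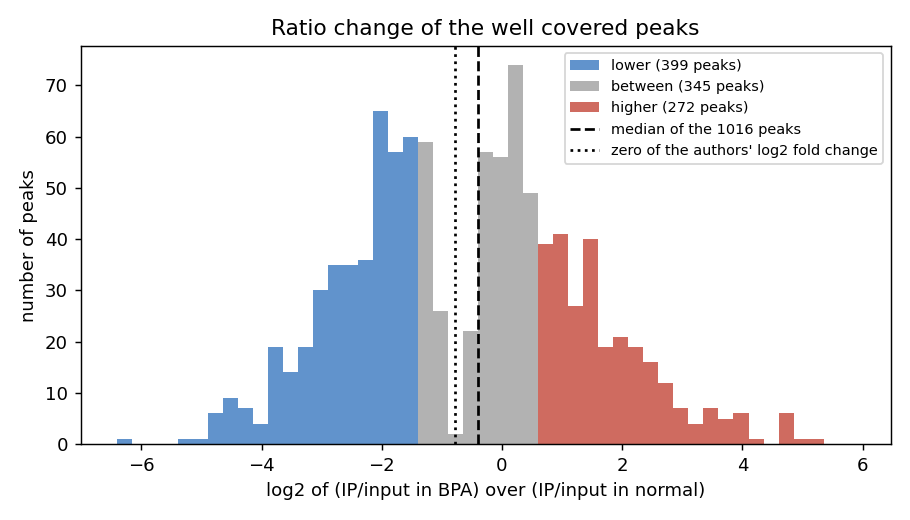
Number of selected peaks (y axis) by log2 ratio change, BPA over normal (x axis), coloured by call, with the median at −0.40 dashed and the zero of the authors' log2 fold change dotted. The peaks fall on both sides of the dotted line, and 8 lie within 0.25 of it.

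The best covered peaks differed least, but coverage here is the smallest of the 4 columns that form the ratio. A low smallest column by itself goes with a larger ratio change. It was the BPA input in 594 of the 1016 peaks, which raises the ratio change. The trends in SD and median are therefore a description only. Among the 273 peaks whose smallest column held 100 to 200 reads, the SD of the ratio change was 2.30, and 74.0% were past 2-fold. Among the 388 peaks with 400 or more reads in every column, the SD was 1.56 and 54.6% were past 2-fold. The median moved from 0.02 in the first of these bins to −1.08 in the second. The smallest absolute log2 fold change in the authors' deposited table was 0.41 in the first bin and 0.12 in the second, so small differences were listed only for the deeper peaks. The second bin held 64 higher and 148 lower peaks, and the first 102 higher and 100 lower.

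At the 12 peaks with the highest ratio changes, IP over input was 0.057 to 0.241 in normal cells and 1.30 to 6.08 in BPA. Their IP changes were 1.47 to 4.81 and their input changes −3.19 to 0.72, so the IP was higher in BPA at each of them. The extreme was Gm4739, a predicted gene, at chr10:25984137-25984161. It had 480 normal IP, 1918 normal input, 4382 BPA IP and 285 BPA input reads. The IP was thus high in BPA and the input low, giving a log2 ratio change of 5.35 (95% counting interval 5.12 to 5.58).

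Timp3, an inhibitor of matrix metalloproteinases, had a peak at chr10:86183027-86183051 with 200 normal IP, 922 normal input, 2609 BPA IP and 286 BPA input reads. Its ratio change was 4.80, nearly all of it from the IP, which differed by 4.17 while the input differed by −0.63. Hmgn2, a nucleosome-binding protein, reached the same 4.80 at chr4:133692049-133692198 with 743, 1815, 4728 and 275 reads in the same column order. For Srsf3, a serine-arginine-rich splicing factor, the reads at chr17:29254477-29255308 were 1141, 1886, 3580 and 143. Its ratio change of 4.78 is the IP change of 2.12 minus the input change of −2.66, so the input contributed more than the IP.

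A peak of the mitochondrial heat shock protein gene Hspa9 had 1888 normal IP, 2467 normal input, 3777 BPA IP and 130 BPA input reads. Its ratio change of 4.66 came mainly from the input, which differed by −3.19, and its BPA ratio of IP to input, 6.08, was the highest of the selected peaks. The remaining peaks among the 12 highest were those of Pdzd8 (4.87), Map3k12 (4.79), Uso1 (4.74), Fam3c (4.34), Pcbp2 (4.09), Hnrnph1 (4.08) and Rnf146 (4.07). The Map3k12 and Pcbp2 peaks overlap on opposite strands of chromosome 15 and had the same 157 normal IP, 3187 BPA IP and 257 BPA input reads. Their normal inputs differed, with 526 reads for Map3k12 and 324 for Pcbp2. In the other columns their reads cannot be told apart, and these 2 entries may be 1 signal.

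At the 12 lowest peaks, IP over input was 1.32 to 8.16 in normal cells and 0.039 to 0.291 in BPA. Their input changes were 0.46 to 4.43, so the input RPM was higher in BPA at each of them, and their IP changes −4.30 to −0.14. The median input change over all selected peaks was 0.60, and Upf3a, at 0.46, lay below it. F11r, which encodes the junctional adhesion molecule JAM-A, had the lowest value, at chr1:171289392-171289466. Its reads were 3794 in the normal IP, 427 in the normal input, 188 in the BPA IP and 1008 in the BPA input. The IP was lower and the input higher in BPA, giving −6.17 (95% counting interval −6.43 to −5.90).

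Kdm2a, a histone H3 lysine demethylase, followed at −5.39, with 1937, 119, 570 and 972 reads at chr19:4366947-4366971. Bdnf, a neurotrophin, had 3223, 458, 280 and 746 reads at chr2:109556636-109556760 and a ratio change of −4.82.

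Other peaks among the 12 lowest were those of Gm10243 (−4.92), Ankrd17 (−4.88), Etl4 (−4.81), Upf3a (−4.76), Arhgap29 (−4.71), Tomm70a (−4.60), Baz1a (−4.57) and Rpl35a-ps4 (−4.52). Upf3a, a nonsense-mediated decay factor, had 585.2 RPM in the normal input and 805.41 in the BPA input, beside 771.54 RPM in the normal IP and 39.15 in the BPA IP. Etl4 had the highest normal ratio of IP to input of the selected peaks, 8.16, and one of 0.29 in BPA. With the authors' centring each of these 24 extreme peaks moved by 0.78 and stayed on its side.

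The 6 deepest peaks, by their smallest column, were assigned to mt-Cytb, Meis2 (2 peaks), mt-Rnr2, Gm6161 and Gm5641. For Gm6161 and Gm5641 the peak input exceeded the reads of the gene, as given below. Meis2 encodes a homeodomain transcription factor. Its peak at chr2:115694595-115694669 had 8702 normal IP, 3549 normal input, 11616 BPA IP and 4958 BPA input reads, a ratio change of −0.66. Its neighbour at chr2:115694520-115694544 had 3721, 2631, 9999 and 3734 reads, a ratio change of 0.33. These 6 deepest peaks lay between −0.66 and 0.33, and all were within 2-fold of the median. They were ranked on the same columns that form the ratio, which favours small changes.

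IP and input both contributed to the ratio change. Across the 1016 peaks the log2 IP change had an SD of 1.47 around a median of −0.08, and the log2 input change an SD of 1.25 around a median of 0.60. The IP change made up 58.4% of the variance of the ratio change, the input change 41.9%, and counting error was 0.412% of it. As a description, IP and input changes were uncorrelated across peaks (Pearson 0.0024, Spearman −0.03, n = 1016). Points share the 4 columns and the total behind each. The authors had selected all listed peaks as differential in IP over input, and the read minimum used the same columns. Peaks where IP and input changed alike thus tend to be left out. Independence of IP and input is not read from these values.

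Among the 272 higher peaks, the IP alone was 2-fold from its own median in 131, the input alone in 77, both in 47 and neither in 17. Among the 399 lower peaks the same counts were 134, 146, 45 and 74. More of the lower peaks than of the higher ones thus differed through the input alone (36.6% against 28.3%), a difference that was not tested. The read minimum took out peaks with a low BPA input, and 1222 of the other peaks fell under it there alone. Nothing is therefore read from these shares. The median input change was −0.32 in the higher and 1.55 in the lower peaks, and the median IP change 1.43 and −0.98.

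**Figure D2:**
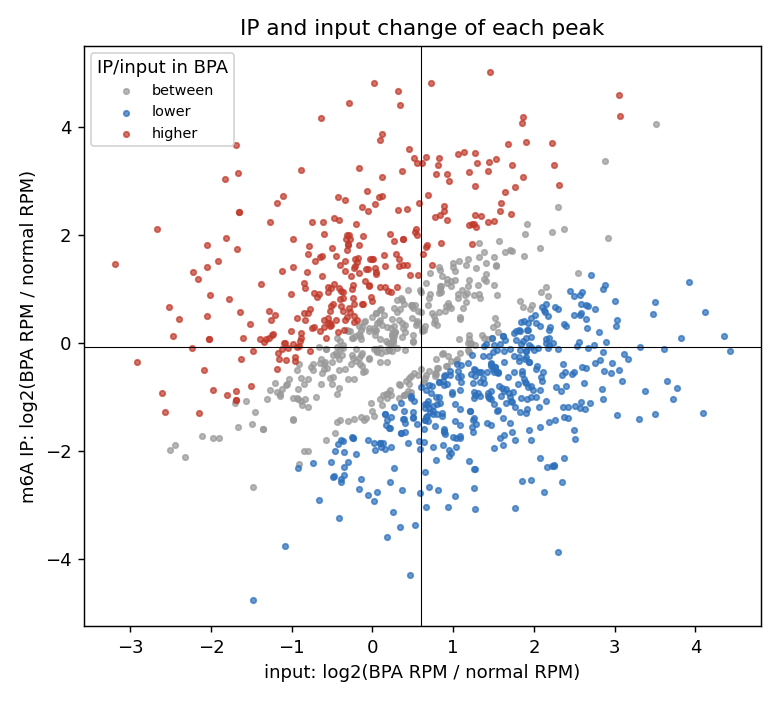
Log2 change of the m6A IP (y axis) against that of the input (x axis), BPA over normal RPM, 1 point per selected peak, coloured by call. The cloud has no slope (Pearson 0.0024) among peaks selected on these same columns, and higher and lower peaks occupy opposite corners as the ratio requires.

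Few selected peaks had an IP over input of 2 or more on the RPM scale. The listed peaks hold 82.61 to 89.42% of each column's scale. Ratios are therefore relative to these peaks as a group and do not by themselves measure enrichment. The ratio of IP to input RPM was 2 or more in 121 peaks (11.9%) in normal cells and in 52 (5.12%) in BPA, and no peak reached 2 in both. In 843 peaks (83.0%) it was under 2 in each condition. The median ratio was 0.89 in normal cells and 0.60 in BPA. Among the other 2315 peaks, 31.9% reached 2 in normal cells and 74.7% in BPA, where their input had a median of 4 reads.

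The calls went with a swap of sides around a ratio of 1, a point set by the scaling of the columns. Of the 399 lower peaks, 360 had more IP than input RPM in normal cells and 3 had so in BPA. Of the 272 higher peaks, 5 did in normal cells and 206 in BPA. In the higher peaks the median ratio was 0.41 in normal cells and 1.24 in BPA, and in the lower peaks it was 1.54 and 0.31. Only 48 of the 1016 peaks had a ratio above 1 in both conditions.

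**Figure D3:**
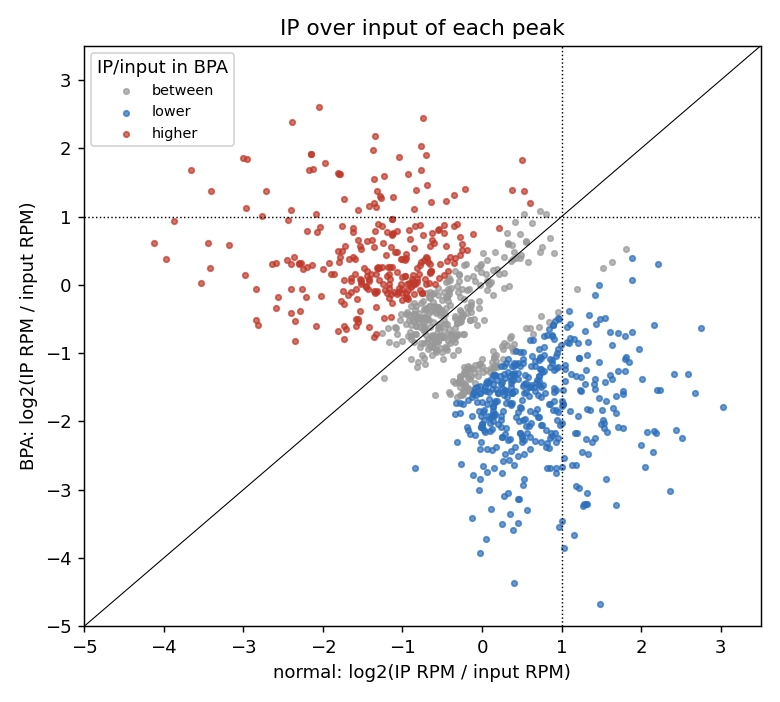
Log2 of IP over input RPM in BPA (y axis) against normal cells (x axis), 1 point per selected peak, coloured by call, with the line of equality. Of the 399 lower peaks 360 lie above 0 in normal cells and 3 in BPA, of the 272 higher peaks 5 and 206, and 48 of all peaks are above 0 on both axes.

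Of the m6A machinery itself, 23 genes were looked up and 2 selected peaks were found. The nuclear reader Ythdc1 had a peak at chr5:86964880-86964929, shared in the table with Gm43055. Its reads were 443 in the normal IP, 1002 in the normal input, 3488 in the BPA IP and 763 in the BPA input. IP over input went from 0.14 to 0.96, a ratio change of 2.78. Hnrnpa2b1, an RNA-binding protein described as a nuclear m6A reader, had 2974, 876, 286 and 265 reads at chr6:51443984-51444165. Its ratio change was −2.24, so the 2 reader peaks lay on opposite sides.

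Autophagy delivers cell contents to lysosomes, and its list of 47 genes held 4 selected peaks. Lamp2, a lysosomal membrane protein, had 625 normal IP, 608 normal input, 2072 BPA IP and 254 BPA input reads and a ratio change of 2.40. Its relative Lamp1 had 1125, 311, 388 and 214 reads and one of −1.59. The protease genes Ctsd, shared with Gm49369, and Ctsl had ratio changes of 1.36 and −0.40. The list was thus split, with 2 peaks higher, 1 lower and 1 between.

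Of 33 steroid and cholesterol genes, 2 had selected peaks. Hmgcs1, which acts early in cholesterol synthesis, had a peak with a ratio change of −1.83, the IP change of 0.03 minus the input change of 1.86. Scd2, a fatty acid desaturase, had 6234 normal IP, 1944 normal input, 1183 BPA IP and 1564 BPA input reads at chr19:44291765-44291914, a ratio change of −2.68. A second Scd2 peak at chr19:44293165-44293214 had 1509, 705, 935 and 249 reads and a ratio change of 0.22.

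The counts of the larger gene lists are read against 26.8% higher and 39.3% lower over all selected peaks, and no list was tested. Heat shock and ER chaperones had 33 peaks in 16 genes, of which 15 were higher and 8 lower, with a median of 0.21 beside −0.40 over all selected peaks. Besides Hspa9, whose 3 peaks were all higher, Hspa4 was at 3.54, Stip1 reached 3.77 and the ER chaperone Hspa5 reached 1.76 at its deepest peak. Other Hspa5 peaks were at −1.68, −0.34 and 0.91, and those of Hsp90ab1 ran from −2.68 to 1.85. Hspa4, Stip1, Hspa5 and Hsp90ab1 were named with their values known. Pdia6, a disulphide isomerase, was lowest at −3.63 and the ER chaperone Hsp90b1 was the median peak at 0.21.

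Splicing factors had 30 peaks in 21 genes, of which 7 were higher and 14 lower, with a median of −1.26. Luc7l3 and Rbm25 had 2 lower peaks each, and Hnrnpk had 2 lower peaks and 1 between, at −1.34. Srsf3, at 4.78, was the highest, followed by a peak of Hnrnph1 at 4.08. Translation factors had 4 higher and 8 lower of 18 peaks, with a median of −0.81. Eif5b was lowest at −4.22, Eif4ebp1 was just below the middle at −1.32, and the highest was Eif1, a start-codon selection factor, where IP over input went from 0.55 to 2.15. The Eif5b peak had 2133 normal IP, 160 normal input, 1683 BPA IP and 1565 BPA input reads, so its value was almost wholly an input change of 4.35. The 23 ribosomal protein peaks were divided, 6 higher and 8 lower, from Rpl7 (−3.68) to Rplp2 (2.47) with Rpl3 at the median of −0.22.

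Extracellular matrix genes, which encode collagens and other secreted scaffold proteins, had 37 peaks in 19 genes, of which 8 were higher and 16 lower, with a median of −1.16. Sparc, a matricellular glycoprotein, was lowest at −3.39: its input was close in both conditions (849.92 and 1011.96 RPM) while the IP went from 919.07 to 104.39 RPM. Timp3 was highest, and a peak of the collagen gene Col1a1 was the median at −1.16. The lists of actin and cytoskeleton (5 higher, 7 lower of 30) and of chromatin and histone chaperones (5 and 6 of 19) were near even, with medians of −0.20 and −0.10. The cytoskeleton list ran from Tpm1 (−2.93) to Map1b (2.91), Hmgn2 was the highest of the chromatin list, and Tuba1c and Bptf were at the medians.

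Membrane traffic had 5 higher and 7 lower of 15 peaks, from Sec62, a protein translocation factor (2.82), to Cltc, the clathrin heavy chain (−3.74), with Sec63 at the median of −1.33. Ubiquitin and proteasome genes had no higher and 3 lower of 11, from Huwe1 (−2.88) to Nedd4 (0.55) around Ube2d3 (−1.19). Transcription and growth regulators had 2 of 7 in each direction, from Ccnd2 (−2.18) to Ier3 (1.08) around Sp1 (0.09). Both glycolysis peaks, in Eno1 (1.07) and Slc2a1 (0.71), were higher.

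**Figure D4:**
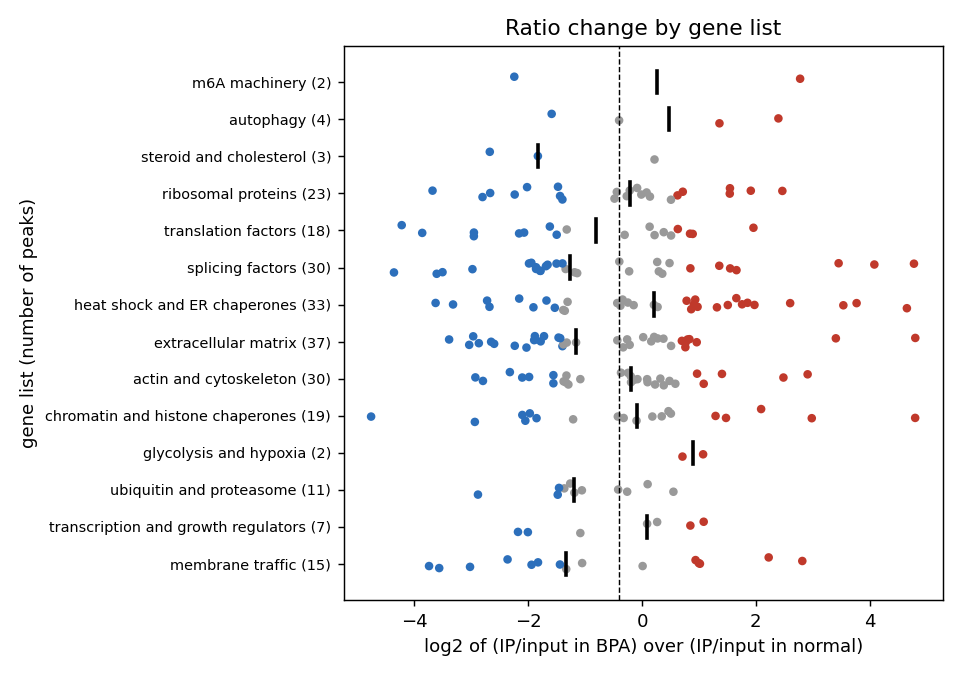
Log2 ratio change (x axis) of each selected peak by gene list (y axis, with the number of peaks), with the median of all 1016 peaks dashed. Every list with more than 11 peaks has points on both sides of the line; chaperones are centred to its right at 0.21, and splicing factors to its left at −1.26.

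The mitochondrial transcripts, chosen after their values were seen, held 8 selected peaks. Of these, 1 was higher and 4 lower. The peak of the small ribosomal RNA mt-Rnr1 at chrMT:345-394 had a ratio change of 0.84, and its neighbours at chrMT:420-444 and chrMT:470-494 had −2.74 and −3.00. The peak at position 470 had 11187 normal IP, 2453 normal input, 2809 BPA IP and 3265 BPA input reads. Peaks of mt-Co1 (0.29), mt-Cytb (−0.09) and mt-Rnr2 (−0.65) were between, and those of mt-Nd5 (−1.89) and mt-Tt (−3.13) were lower.

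Peaks of the same gene often differed. Of the 804 gene entries, 163 held 2 or more selected peaks, and these gave 283 pairs that did not overlap. Both peaks were called in the same direction in 91 pairs and in opposite directions in 44 (15.5%), in 31 genes. Among pairs from different genes 21.1% were opposite. The median gap between the ratio changes of a same-gene pair was 1.40, against a counting error of 0.17 and a median of 1.88 between genes. The input change alone differed by a median of 0.82 between peaks of 1 gene (counting error 0.14).

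The gaps were smaller between close peaks. The 79 pairs under 200 nt apart had a median ratio gap of 0.62, the 73 pairs from 200 to 2000 nt one of 1.73 and the 131 pairs farther apart one of 1.77. Fragments were about 100 nt, so that close peaks can share reads. Values of peaks in a gene are therefore not independent.

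Hnrnph1, an hnRNP splicing regulator, had the largest gap, 8.44. Its peak at chr11:50269249-50270438 had 2766 normal IP, 351 normal input, 236 BPA IP and 408 BPA input reads and a ratio change of −4.36. Its peak at chr11:50273389-50273413 had 367, 901, 2445 and 235 reads and one of 4.08. The IP was thus high in normal cells at the first and high in BPA at the second.

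Uso1, a Golgi tethering factor, spanned −2.11 to 4.74 over 3 peaks, and Eprs, a tRNA synthetase, −3.54 to 2.31. The 2 peaks of Ankrd17 were at −4.88 and 0.91, and the 3 of Ddx1, an RNA helicase, ran from −2.03 to 3.66. Fn1, the fibronectin gene, had the most selected peaks, 6, and was chosen after its values were seen: 3 were lower, 1 higher and 2 between, from −2.97 to 0.70. By contrast the 5 peaks of Cald1, an actin-binding protein gene chosen in the same way, ran from 0.38 to 2.49 with 3 higher and none lower.

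**Figure D5:**
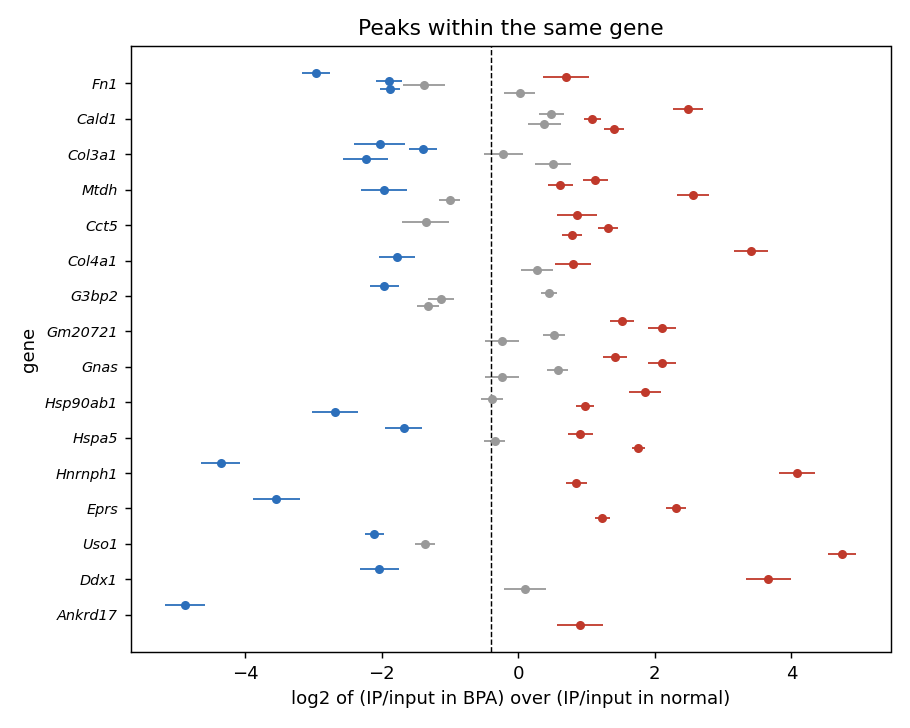
Log2 ratio change (x axis) of the selected peaks in each of the plotted genes (y axis), 1 point per peak with its 95% counting interval, and the median of all 1016 peaks dashed. Peaks of Hnrnph1 lie at −4.36 and 4.08, on both sides of the line, with intervals far narrower than the gap.

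Some peaks shared all their values with another. The values of 22 selected peaks, in 11 sets, were identical in all 4 columns. Rnf146 and Echdc1, Gnas and Gm20721, Usp34 and Ahsa2, and Ctnnb1 and Ulk4 were such pairs at overlapping positions, so their gene of origin is uncertain. In other sets, those of Sptan1, Specc1l, Kif1b and Nsa2, the peaks lay in the same gene at positions that did not overlap. Why separate positions carried identical values is not stated, and these sets are among the 283 same-gene pairs. Counting each set once left 1005 peaks, 268 higher and 393 lower.

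The RNA-seq counts gave the level of the genes under these peaks in 2 libraries per condition. The columns of the count table carry no assay in their names and were taken as the RNA-seq libraries. Library totals were 8813870 and 6305121 reads for BPA and 10455643 and 7517482 for normal cells. The BPA libraries stood apart at low counts: over all genes of the table their median read numbers were 15 and 2, against 233 and 150 for the normal libraries, and 1352 of the tested genes had at most 10 reads in each of them. Genes under selected peaks had medians of 1630 and 1032.5 in the BPA libraries against 1842 and 1376, and 44 of the 764 with a row had at most 10 reads in each BPA library. The part of this difference in the results below was not tested. Of 9 Leydig markers looked up, including Star, Cyp11a1 and Insl3, 0 had a row in the table used here, so the labelled cell type could not be checked from them. The macrophage marker Cd68 had 174 and 436 reads in the BPA libraries against 0 and 59 in the normal ones, and the smooth muscle marker Acta2 498 and 1270 against 80 and 352. Each was the only 1 of its 4 listed markers with a row. The Sertoli markers with a row, Wt1 and Clu, summed to 2287 and 721 reads in BPA against 1784 and 2308. None of the marker lists held a selected peak, and their part in the results was not tested.

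For the RNA level of genes under selected peaks, edgeR (quasi-likelihood, Benjamini-Hochberg) called none, 0 of 726, at the 0.05 threshold. Over all 8645 genes tested it also called 0 (0%), and no adjusted p was below 0.329. The number of these genes called moved when either BPA RNA-seq library was left out, and such fits leave 1 library in a group. Without adjustment, p was under 0.05 with a higher level in BPA for 16 of the 726 genes, beside 1.35% of all tested genes, and with a lower level for 5, beside 12.7%. DESeq2 called 5 higher and 1 lower of 722, beside 0.576% and 2.83% of all genes. Selected peaks had to pass the read minimum in the BPA input, which came from the same RNA-seq groups. The selection thus tends to leave out genes with few reads in BPA, which lowers the share of lower genes. The shares under selected peaks and over all genes are therefore not comparable, and nothing is read from their difference. With 2 libraries per group, each p-value sets the group difference against the spread between these libraries, with information on spread shared across genes. Whether the libraries came from separate cultures is not stated.

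The gene lower in BPA by DESeq2 was Nme1, a nucleoside diphosphate kinase, whose normal libraries held 1315 and 663 reads and whose BPA libraries held 4 and 1 (DESeq2 adjusted p 0.00068). Its selected peak nevertheless had 262 reads in the BPA input. Those higher were Anp32b, Hsp90aa1, Canx, Lrrcc1 and Bcap31. Anp32b, a histone chaperone, had 31254 and 20050 reads against 20878 and 11335, a log2 fold change of 1.31 by DESeq2 (adjusted p 0.0019). Hsp90aa1, a cytosolic chaperone, had 38719 and 28848 against 30894 and 18693 (1.10, DESeq2 adjusted p 0.0060). Relative to library size the 2 conditions did not overlap for any of these 6 genes, which their choice by DESeq2 favours. The share of all tested genes without overlap was not computed, so nothing is read from this. These genes were named because DESeq2 called them, after their values were seen.

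The genes of the extreme peaks were not called in edgeR. In the BPA libraries F11r had 1243 and 1595 reads, and in the normal ones 2168 and 1529. Timp3 had 16042 and 7007 against 11105 and 11926, and for both genes the conditions overlapped relative to library size. Gm4739 went from 298 and 400 reads in normal libraries to 15 and 2 in BPA (edgeR adjusted p 0.555). Rnf146 had 0 and 0 against 52 and 129 (edgeR adjusted p 0.329), while its peak had 124 BPA input reads. Of the 2 m6A readers, Hnrnpa2b1 had 53078 and 42447 reads in the BPA libraries against 59438 and 41668 (log2 fold change 0.43 ± 0.24, SE, edgeR adjusted p 0.646).

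In the gene lists, edgeR called 0 genes in any list. At an unadjusted p under 0.05 in edgeR, which 1.35% of all tested genes passed with a higher and 12.7% with a lower level in BPA, the heat shock and ER chaperone list had 4 of 38 tested genes higher and 0 lower. The autophagy list had 0 of 40 higher and 8 lower, the splicing factors 3 of 59 higher and 1 lower, and the m6A machinery 1 of 22 higher and 2 lower. The extracellular matrix list had 0 of 38 higher and 1 lower.

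RNA level and peak input were weakly related. Across 927 peaks of tested genes, the gene's log2 fold change had a Spearman correlation of 0.333 with the input change of the peak, 0.007 with the IP change and −0.207 with the ratio change. These peaks share genes and libraries, and the input came from the same RNA-seq groups, so the values are a description. The median RNA log2 fold change was 0.36 for genes of lower peaks, 0.05 for those between and 0.00 for those of higher peaks.

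For some peaks the input exceeded the gene. Of 972 peaks whose gene had a row, 93 (9.57%) had more recovered input reads in at least 1 condition than the gene's summed RNA-seq reads, 64 of them in both. Of the 93, 53 were among the 82 peaks of pseudogenes or unnamed gene models and 40 among the 890 others. At a Gnas peak the normal input had 2117 reads and the gene 82, and the BPA input 250 and the gene 2. At the Hmgn2 peak the normal input had 1815 reads and the gene 366. Other peaks named above were among the 93. Gm4739 had 1918 normal and 285 BPA input reads, and its gene 698 and 17. Gm10243 had 839 and 2047, and its gene 102 and 9. The deep peak of Gm5641 had 2518 and 2675, and its gene 3 and 0. That of Gm6161 had 2881 and 3376, and its gene 330 and 0. The normal input of Map3k12 had 526 reads and its gene 134. For such peaks the 2 deposited tables did not count the same reads.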

How the data were processed

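Per the labels' protocols, mRNA isolated on Dynabeads was fragmented to about 100 nt, immunoprecipitated with an m6A enrichment kit and sequenced as paired 150-base reads. The submitters' processing notes list HISAT2 2.2.1 (an aligner), featureCounts 2.0.1, fastp 0.20.1, DESeq2 1.38.3 and the builds GRCm39 and GRCh38, with no role given. No source used here names the peak caller. Coordinates are as deposited, taken as GRCm39.

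The authors deposited a peak table with RPM per pooled column, a log2 fold change, p-values, FDR values and a −log10 p score (not used), and a table of raw read counts per gene. Listed peaks hold 82.61 to 89.42% of each RPM column's scale. Reads per peak were recovered from the RPM step. The ratio change was taken without a pseudocount, and calls were 2-fold from the median over the 1016 peaks. Intervals (95%, Poisson) cover counting error only. No count test was run on peaks because each condition has 1 value.

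Gene counts were tested with edgeR 4.0.16 (limma 3.58.1, R 4.3.3; TMM, filterByExpr, robust quasi-likelihood F test) and DESeq2 1.42.0, with a threshold of 0.05 on the adjusted p. The edgeR step was tested on simulated data. Other numbers were computed with pandas 2.3.3 and numpy 2.4.6. Same-numbered RNA-seq libraries did not deviate together (correlation −0.00096), so no pairing was used.

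Peaks named were the 12 highest and 12 lowest, the 6 deepest, 3 on each side of the read minimum, those of the m6A, autophagy and steroid lists and of Map1lc3b, the 5 genes with the largest gaps, and the extremes and median of each other list. An item among these is not reported here. Members and lists were chosen with earlier results of these data known. Peaks of Hspa4, Stip1, Hspa5, Hsp90ab1, Luc7l3, Rbm25, Eno1 and Slc2a1 were named outside this rule, with their values known. Peak sequences, exons and UTRs were not analysed here.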

Additional observations from a re-analysis of the deposited data

How the results depend on the processing

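The number of genes under selected peaks called in RNA, 0 in edgeR, was also 0 with DESeq2's size factors in edgeR, with no filter and with the replicate block, and 6 with DESeq2. Leaving out 1 library gave 0 to 88 calls: 88 without BPA RNA-seq replicate 1, 8 without BPA RNA-seq replicate 2 and 0 without either normal library. In such fits the lone library is assumed to vary like the other group. Same-numbered libraries share only a number.

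Of the counts of 272 higher and 399 lower peaks, a minimum of 200 reads with its own median gave 278 and 182. With the median of the 1016 peaks kept it gave 170 and 299, an alternative chosen after seeing the data. A 3-fold limit gave 184 and 260. Leaving out genes with 2 or more selected peaks, also chosen after seeing the data, left 641 peaks, 166 higher and 252 lower. The share of higher calls was 60.4% at the 200-read minimum, 53.3% with the authors' centring and 30.2% without centring, against 40.5%. Adding 1 RPM to each column kept the direction of the 83 named peaks. Depth limits the BPA input most: it was the smallest column in 594 of 1016 peaks.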
